A study of Mus musculus with 8 samples.

Results

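The 10 genes described here encode the contractile apparatus of smooth muscle: Acta2, Tagln, Myh11, Myl9, Cnn1, Tpm2, Des, Lmod1, Pln and Mylk. They were chosen by symbol, each symbol matched 1 gene, and they are 10 of the 31053 genes counted in every library. Single-cell RNA was measured in suspensions of mouse cortex from animals 8 weeks old, in 4 groups: Lama4-/- mice, wild-type (WT) mice as their control, Tek-Cre:Lama5-/- mice, and a separate WT control for these. Lama4 and Lama5 encode alpha chains of laminin, a protein of the basement membrane around blood vessels. Tek-Cre is a recombinase active in the endothelial lineage, so the Lama5 deletion is aimed at endothelial cells and not at mural cells, while Lama4-/- carries no such restriction in its label. Below, the groups are called Lama4 KO and Lama5 KO, each with its own WT.

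Each group was a pool of 3 brains, taken after perfusion with cold saline, and was deposited as 2 samples. Both samples of the Lama4 KO held identical values and were counted as 1 library, which left 7 libraries. Replicate libraries of a group came from the same pool of mice, so the spread between them, and every p-value below, leaves out the variation between mice. Libraries held 35479306 to 48314458 unique molecular identifiers (UMIs, counts of captured RNA molecules), and 47239 cells of 56961 deposited barcodes were kept. No pair of libraries shared more than 1 mural cell barcode.

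Contraction in these cells is a calcium-driven sliding of filaments. Calcium bound to calmodulin activates myosin light chain kinase (Mylk), which phosphorylates the regulatory light chain (Myl9) and lets smooth muscle myosin heavy chain (Myh11) pull on filaments of smooth muscle actin (Acta2). Tropomyosin beta (Tpm2), calponin (Cnn1) and transgelin (Tagln) bind along those filaments, and leiomodin (Lmod1) starts new ones. Desmin (Des) forms the intermediate filaments that tie the apparatus together, and phospholamban (Pln) restrains the pump that returns calcium to its store. In brain, smooth muscle cells wrap arteries and arterioles and set their diameter, while pericytes lie along capillaries. Both are mural cells, and the contractile genes are a classical set of targets of serum response factor, which binds a DNA element called the CArG box.

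The genes lie on 7 chromosomes of the GRCm38 build (GENCODE release M21 gene bounds). Of the filament and motor genes, Acta2 lies at chr19:34241090-34255590 on the minus strand, Myh11 at chr16:14194535-14291372 on the minus strand and Myl9 at chr2:156775420-156781658 on the plus strand. The kinase gene Mylk lies on the plus strand at chr16:34745210-35002420. Of the actin-binding genes, Tagln lies at chr9:45929619-45936058 and Tpm2 at chr4:43514711-43523765, both on the minus strand, and Cnn1 at chr9:22099216-22109630 and Lmod1 at chr1:135324807-135368065, both on the plus strand. Des lies at chr1:75360329-75368579 and Pln at chr10:53337667-53345987, both on the plus strand. All are annotated as protein-coding. Tagln, Des, Lmod1, Pln and Mylk overlap other annotated genes, so a share of their UMIs could be assigned differently by another counting rule.

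RefSeq promoter windows on GRCm38.p6, running from 250 bases before to 50 after a RefSeq start, were matched for 8 of the 10 genes. That start need not be the GENCODE start given above. Tagln and Myh11 had no entry. The CArG box was searched by its letters: 2 C, then 6 bases that are each A or T, then 2 G, a pattern that reads alike on both strands. Of all 32851 windows, 535 (1.63%) held a match, and among the matched members Myl9 did. Allowing 1 base of the core to be other than A or T, 3280 windows (9.98%) held a match, among them Myl9 and Acta2. In Acta2 the matches were CCCTATATGG, 84 bases before the RefSeq start, and CCTTGTTTGG, 34 bases before it. Both lie inside the GENCODE bounds of the gene. Stretches upstream of both the RefSeq and the GENCODE start are printed for Myl9, which was high in pericytes too, and for Cnn1 and Pln, which were nearly absent there. Each is on the plus strand, read 5′ to 3′, with matches to the relaxed pattern in capitals. The Myl9 stretch is chr2:156775214-156775419, the Cnn1 stretch chr9:22099003-22099215 and the Pln stretch chr10:53337436-53337666.
Myl9: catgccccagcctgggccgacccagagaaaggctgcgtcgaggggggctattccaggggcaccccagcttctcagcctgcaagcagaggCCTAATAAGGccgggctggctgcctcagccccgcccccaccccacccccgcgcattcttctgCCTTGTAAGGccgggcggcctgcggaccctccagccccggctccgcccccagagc
Cnn1: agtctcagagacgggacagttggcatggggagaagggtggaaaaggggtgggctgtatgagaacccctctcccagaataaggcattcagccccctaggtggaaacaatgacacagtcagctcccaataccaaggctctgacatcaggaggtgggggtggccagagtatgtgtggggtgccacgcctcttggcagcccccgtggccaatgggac
Pln: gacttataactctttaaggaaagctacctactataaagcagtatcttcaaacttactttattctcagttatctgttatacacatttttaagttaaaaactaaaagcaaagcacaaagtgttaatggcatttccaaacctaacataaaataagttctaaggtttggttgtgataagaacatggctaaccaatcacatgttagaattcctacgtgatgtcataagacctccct

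In Myl9 the first capital run, 161 bases before the start, is the full CArG match, and the second, 99 bases before the start, departs from it at 1 core base. No match to either pattern was found in the windows of Cnn1, Pln, Des, Lmod1, Tpm2 or Mylk, which says only that these letters are not in these windows. The Mylk window, chr16:34784700-34784999, lies inside the GENCODE bounds of the gene and not at their start.

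Mural cells were found by clustering all cells without the 10 genes and naming clusters from marker lists that also leave them out. The smooth muscle-like class held 2631 cells, 252 to 458 per library, and met 14 of its 14 markers. The pericyte-like class held 1578 cells in a main cluster of 1423, which met 10 of 10 pericyte markers, and a small cluster of 155 led by genes such as Ifitm1, Cxcl1 and Col3a1. That small cluster met 7 of the 10 pericyte markers and also 3 of 7 fibroblast markers. Finer clustering divided the smooth muscle-like class into clusters of 1538 and 1092 cells, with 1 cell in neither. They were named Rgs5-high and Rgs5-low afterwards, by their level of Rgs5, a regulator of G-protein signalling. At that finer resolution the naming rule put the Rgs5-high cluster with the pericytes, so its smooth muscle name rests on the coarser clustering. A cluster set against another is a description without a test, since the cells were grouped by their expression.

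All 10 contractile genes were higher in smooth muscle-like than in pericyte-like cells in 7 of 7 libraries. Among the 6414 genes at 20 CPM or more (counts per 1000000, the UMIs of a gene scaled to that total for the cells summed), 16.2% were higher in all libraries. Together the 10 genes took 4.64% and 4.69% of the UMIs of smooth muscle-like cells in the WT of the Lama4 experiment, 5.42% in the Lama4 KO, 3.24% in both WT libraries of the other experiment, and 3.16% and 2.94% in the Lama5 KO. In pericyte-like cells they took 0.265% to 0.49%. The classes therefore did not come near each other in any library.

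The separation was widest for Pln and Cnn1. Pln gave 15301 UMIs in smooth muscle-like cells and 18 in pericyte-like cells over all libraries, a pooled CPM ratio of 237. Cnn1 gave 3062 against 7 UMIs, a ratio of 122. In pericyte-like cells neither gene had a UMI in any of the 4 libraries of the Lama5 experiment. The pooled ratio was 29.2 for the myosin Myh11, 23.5 for Acta2, 20.1 for Tagln, 13.2 for Tpm2 and 9.45 for Lmod1.

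Myl9, Mylk and Des kept a sizeable level in pericyte-like cells. In library order (WT 1, WT 2 and KO of the Lama4 experiment, then WT 1, WT 2, KO 1 and KO 2 of the Lama5 experiment), Myl9 stood at 1538, 1675, 1547, 1494, 1462, 1451 and 1350.4 CPM. The corresponding Mylk levels were 449, 483, 461, 466, 501, 459 and 467 CPM. Des stood at 261, 285, 251, 120.0, 169, 173 and 146 CPM. For the kinase and its substrate the libraries sat close together, while Des was higher in each library of the Lama4 experiment than in any of the Lama5 experiment. The smooth muscle-like to pericyte-like ratio, pooled, was 3.55 for Myl9, 3.62 for Des and 4.35 for Mylk.

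The 4 mural clusters formed an order for most of the genes: main pericyte-like, small pericyte-like, Rgs5-high and Rgs5-low smooth muscle. Median Acta2 over the 7 libraries was 106, 1905, 6779 and 15633 CPM along this order. Median Tagln was 47.2, 2323, 5306 and 11239 CPM, and median Tpm2 was 212, 975, 2563 and 5757 CPM. For each of these 3 genes, every library of a cluster lay above every library of the cluster before it.

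For Acta2 in the main pericyte-like cluster the libraries read 156, 128, 204, 17.7, 106, 27.2 and 0 CPM, in the order given above. In the small cluster they read 2583, 2773, 2249.7, 1905, 1720.4, 1598 and 1508 CPM. The actin gene was thus low and uneven in the main cluster, which gave 382 of the 2382 Acta2 UMIs of the class. Pooled over libraries, the small cluster exceeded the main one 23.0-fold for Acta2, 37.8-fold for Tagln, 11.6-fold for Lmod1, 5.24-fold for Tpm2, 3.65-fold for Des and 1.64-fold for Myl9, each in 7 of 7 libraries. Of 6625 genes, 6.25% were higher in the small cluster in all libraries. Myh11 was higher in 5 of 7 libraries, at a pooled ratio of 1.48, and Mylk in 6 of 7, at 1.27. Cnn1 and Pln remained at 1 and 4 UMIs in the small cluster. The small cluster rested on as few as 7 cells in a library, and fibroblast markers were part of its profile; their part in these levels was not tested.

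**Figure D1:**
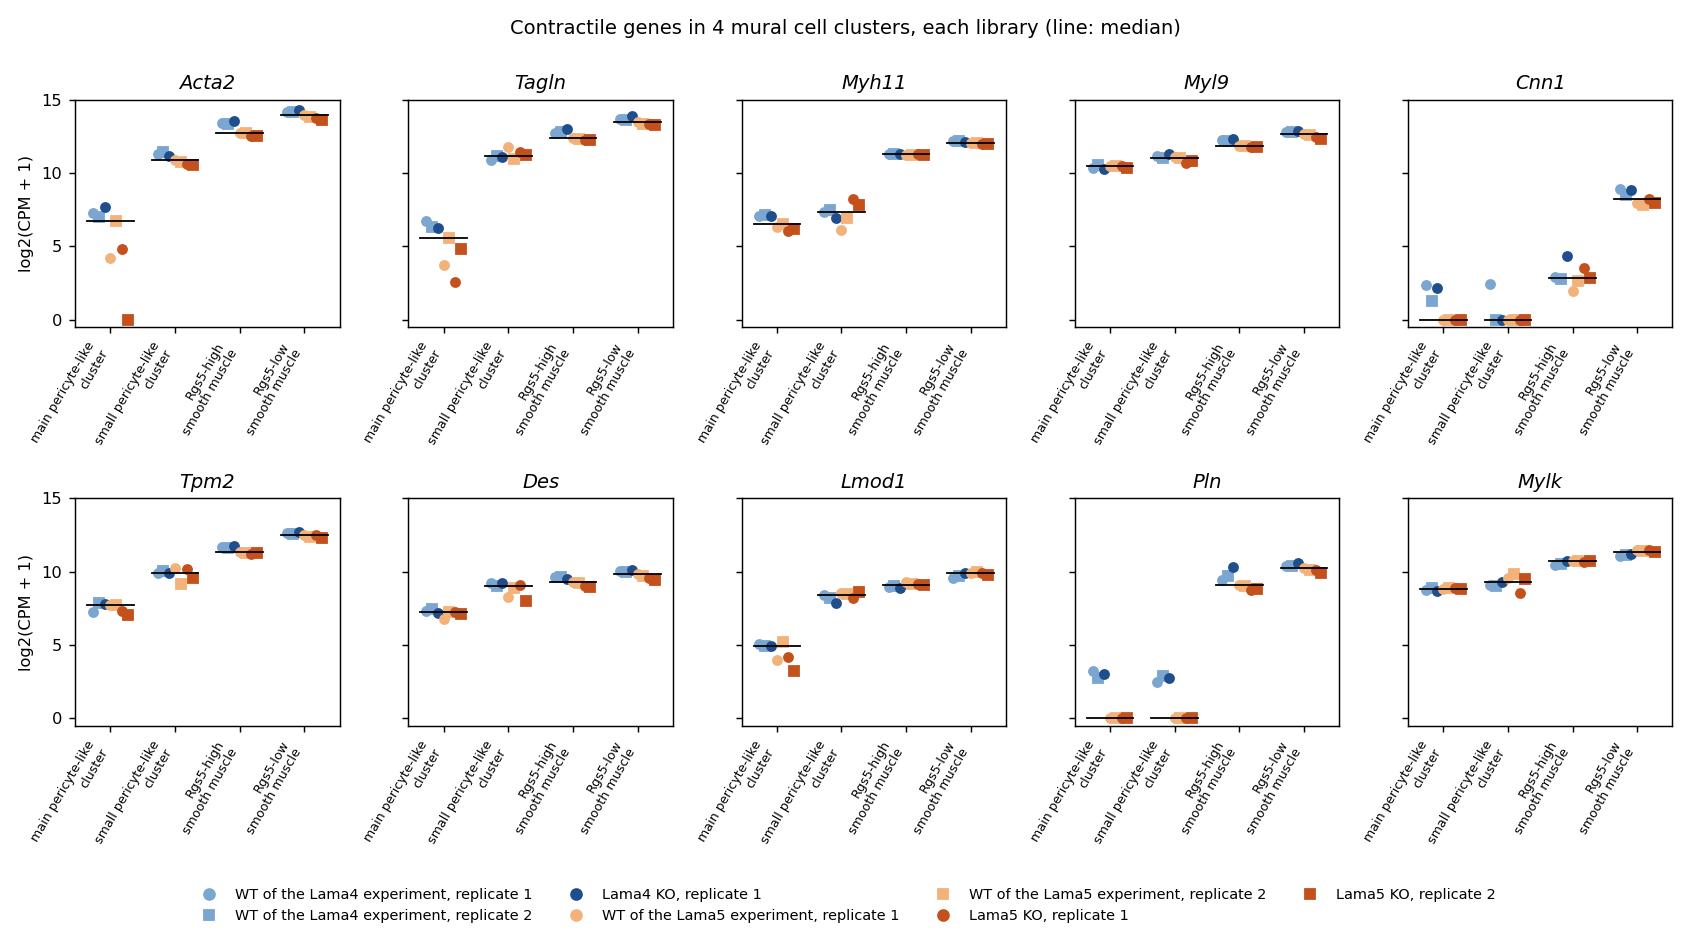
Level of each contractile gene, as log2(CPM + 1), in 4 mural clusters; each point is a library, colour gives the group, shape the replicate, and the line is the median of the 7 libraries. Acta2 climbs from a median of 106 CPM in the main pericyte-like cluster to 15633 CPM in Rgs5-low smooth muscle cells, whereas Cnn1 is at 2.88 to 19.7 CPM in Rgs5-high cells and at 222 to 474 CPM in the last cluster.

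Within smooth muscle, all 10 genes were higher in Rgs5-low than in Rgs5-high cells in 7 of 7 libraries, against 9.73% of 5828 genes. Cnn1 showed the widest gap. Its 7 libraries read 6.41, 5.98, 19.7, 2.88, 5.33, 10.3 and 6.07 CPM in Rgs5-high cells and 474, 370.4, 464, 253, 222, 306 and 252 CPM in Rgs5-low cells. Of the 3062 Cnn1 UMIs in smooth muscle-like cells, 3009 (98.3% of those in both clusters) came from Rgs5-low cells. Calponin RNA was therefore a feature of the Rgs5-low cluster, with no overlap between the clusters in any library.

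The other genes differed by less between the smooth muscle clusters. Median log2 ratios of Rgs5-low over Rgs5-high were 1.11 for Acta2, 1.11 for Pln, 1.00 for Tpm2 and 0.99 for Tagln. Smaller ratios were seen for the myosin genes Myh11 (0.80) and Myl9 (0.60), for Lmod1 (0.69) and for the kinase Mylk (0.65), and Des was last at 0.48. The share of all UMIs given by the 10 genes was 4.23% to 6.06% in Rgs5-low and 2.22% to 3.55% in Rgs5-high cells. Rgs5-high cells in turn exceeded the main pericyte-like cluster for 10 of 10 genes in 7 of 7 libraries, against 14.8% of 6459 genes. The pooled ratio there was 74.3 for Acta2 and 99.3 for Tagln, but 2.94 for Myl9 and 3.62 for Mylk.

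A finer view ordered single mural cells by markers that leave out the 10 genes. Each cell was given its smooth muscle share, the UMIs of 13 smooth muscle markers over those plus the UMIs of 9 pericyte markers, and 4147 of 4209 mural cells had at least 5 such UMIs. These fell into 5 equal bins of that share with 1085, 352, 175, 365 and 2170 cells. The ends therefore held most cells, and the middle bin held as few as 17 in a library. The highest bin exceeded the lowest in all libraries for 10 of 10 genes, against 16.4% of 6415 genes. In 7 of 7 libraries Acta2, Tagln, Myh11, Myl9, Tpm2, Lmod1 and Mylk rose at each step, and Des and Pln did so in 5.

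The genes came up at different points along the bins. Myl9 stood at 26.3% of its highest-bin median in the lowest bin, Des at 20.4% and Mylk at 18.8%. Myl9 and Des passed 50% of the highest-bin level in the third bin, at 51.8% and 52.4%. In the fourth bin Myh11 (51.6%), Tpm2 (51.6%), Lmod1 (56.2%) and Mylk (54.3%) passed it. Acta2 and Tagln were later, at 43.6% and 48.8% in the fourth bin, and Pln stood at 26.8% there. With the markers Vtn and Crip1 added to the share, Tagln passed 50% in the fourth bin (54.1%) and Acta2 stood at 49.0%, so the place of Tagln depends on the markers used. Cnn1 was at a median of 0 CPM in the first 4 bins and at 143 CPM in the last, where its libraries ran from 102 to 366 CPM. Because bins mix cells of several clusters, a rise across bins describes the mix of cells as well as levels per cell.

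**Figure D2:**
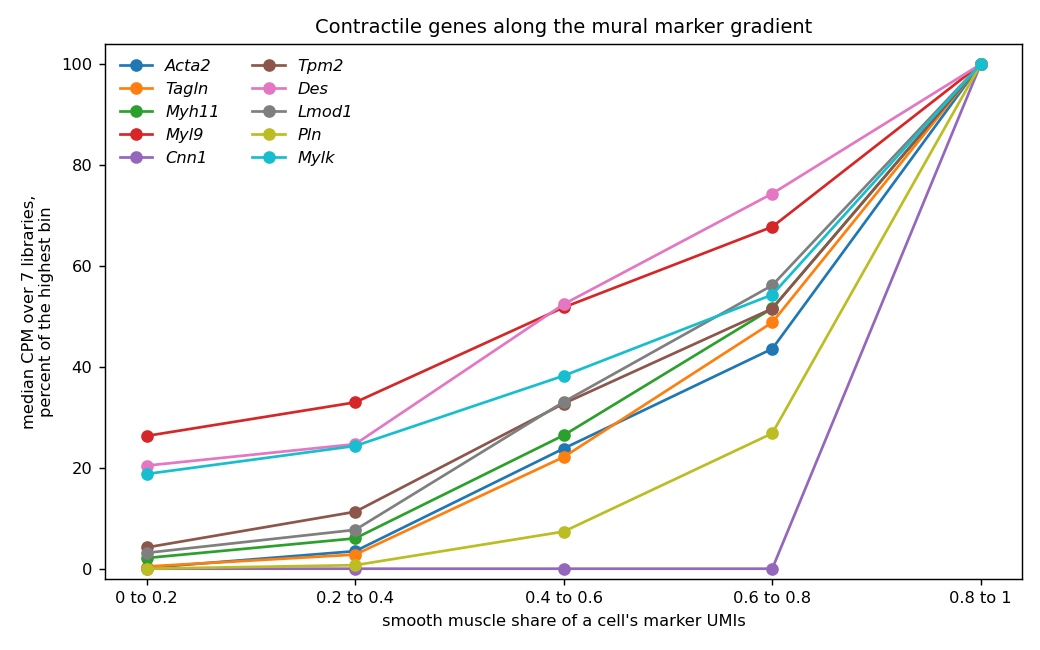
Median CPM over the 7 libraries in 5 bins of the smooth muscle share of a cell's marker UMIs, as a percent of the highest bin, with 1 line per contractile gene. Des and Myl9 pass 50% in the third bin, while Cnn1 stays at 0 until the last.

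To see how many cells carried each RNA, cells with at least 2000 UMIs were thinned to 2000, and shallower cells were left out. Main pericytes of KO library 2 of the Lama5 experiment had a median of 1885.5 UMIs, so more of them were left out than kept. The percent of thinned cells with a UMI is the median of the 7 libraries, beside that in microglia-like cells, which should lack these genes. For Acta2 it was 4.55% in the main pericyte-like cluster, 66.7% in the small cluster, 97.7% in Rgs5-high and 100% in Rgs5-low cells, against 2.88% in microglia-like cells. That median joins experiments that differed. In main pericytes of the Lama4 experiment Acta2 was found in 14.6%, 19.0% and 25.9% of cells (WT 1, WT 2 and KO), against 9.70%, 7.75% and 8.74% of microglia-like cells. In the Lama5 experiment it was found in 2.70%, 4.55%, 1.85% and 0% of main pericytes, against 1.51%, 2.88%, 1.94% and 1.87% of microglia-like cells. Tagln was found in 9.52% to 11.8% of main pericytes in the Lama4 experiment, against 3.63% to 4.68%, and in 0% to 3.64% in the Lama5 experiment, against 0.864% to 1.92%. Both genes thus read higher in main pericytes than in microglia-like cells in each library of the Lama4 experiment, and lay around the microglia level in the other. Myl9, in contrast, was found in 87.8% of those pericytes and 1.68% of microglia-like cells. Mylk was found in 57.1% against 0.432%, and Myh11 in 13.5% against 0.959%. Cnn1 was found in 0.75% of Rgs5-high and 38.6% of Rgs5-low cells, and Pln in 49.4% and 87.2%. Before thinning, 22.3% to 28.0% of main pericytes and 20.5% to 28.5% of microglia-like cells had an Acta2 UMI in the Lama4 experiment, and 0% to 7.34% and 2.61% to 4.26% in the Lama5 experiment. Those cells differed in depth, with medians per library of 1885.5 to 2806.5 UMIs in main pericytes and 2788 to 7244 in microglia-like cells.

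Outside mural cells the 10 genes were scarce, taking 0.00686% to 0.0156% of the UMIs of endothelial-like cells. Mylk was found in 5.75% of thinned endothelial-like cells, against the 0.432% in microglia-like cells given above. Jph2, Mustn1, Vgll3, Nrip2 and Olfr558 were the non-members most like the mean of the 10 genes, by Pearson correlation of log2(CPM + 1) over 42 sums from 6 cell classes in 7 libraries. Their r ran from 0.981 for Jph2 to 0.973 for Olfr558. Mustn1, Nrip2 and Olfr558 were also among the markers used to name the cells. Sums from a library share its depth and may share RNA of other cells, so these values are a description.

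The mix of mural cells bears on every level in a class and differed between the experiments. Smooth muscle-like cells made up 51.8%, 54.1% and 50.7% of mural cells in the WT and KO of the Lama4 experiment, and 69.5% to 70.4% in the 4 libraries of the Lama5 experiment. Rgs5-low cells made up 54.7% and 61.7% of smooth muscle-like cells in the WT of the Lama4 experiment and 70.6% in its KO. In the Lama5 experiment the share was 26.95% and 31.4% without the deletion, against 34.0% and 29.7% with it. The Lama5 KO differed from its WT by -0.105 percentage points in the smooth muscle-like share (exact permutation test over libraries, two-sided, p = 1) and by 2.63 points in the Rgs5-low share (p = 0.6667 by the same exact test). With 2 libraries against 2, that test cannot give a p below 0.3333.

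**Figure D3:**
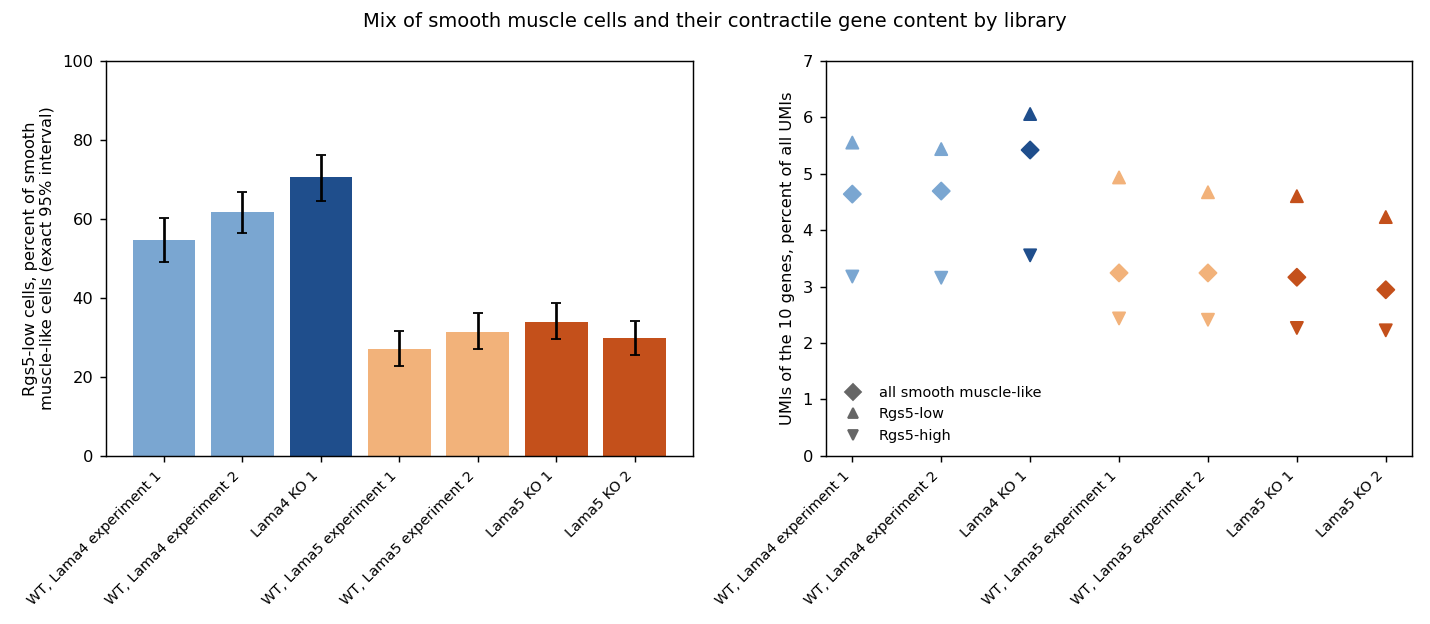
Left, Rgs5-low cells as a percent of smooth muscle-like cells in each library, with exact binomial 95% intervals that cover counting error only; right, UMIs of the 10 contractile genes as a percent of all UMIs, in all smooth muscle-like cells and in each smooth muscle cluster. Both quantities are higher in the 3 libraries of the Lama4 experiment, and the 10 genes take 5.42% of UMIs in its KO against 2.94% to 3.24% in the Lama5 experiment.

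WT smooth muscle-like cells, alike in genotype by their labels, were compared between the experiments. With edgeR's quasi-likelihood test, 2687 of 10073 genes (26.7%) passed an adjusted p of 0.05, and 8 of the 10 contractile genes were lower in the WT of the Lama5 experiment than in that of the Lama4 experiment, where 1276 genes (12.7%) were lower in all. On the scaled CPM of this fit, Acta2 stood at 16011 and 16054 CPM in the Lama4 experiment and at 9373 and 9441 CPM in the Lama5 experiment. The difference was -0.77 in log2 (SE 0.0226, edgeR adjusted p = 2.71e-12). Cnn1 stood at 306 and 259 against 82.1 and 82.9 CPM, a log2 difference of -1.77 (SE 0.0953, edgeR adjusted p = 2.24e-09). Tagln, Pln, Tpm2, Myl9, Des and Myh11 fell by 0.69, 0.69, 0.60, 0.53, 0.49 and 0.43 on the log2 scale.

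Mylk and Lmod1 stood apart, with log2 differences of 0.01 (95% interval -0.07 to 0.10) and -0.01 (-0.13 to 0.10). Within single smooth muscle clusters most of the falls were smaller. Within Rgs5-low cells the Acta2 difference was -0.35 and the Cnn1 difference -0.92, with 914 of 8404 genes (10.9%) and 9 of 10 members past the edgeR threshold. Within Rgs5-high cells, where 1461 of 8822 genes (16.6%) passed, Acta2 differed by -0.64, Pln by -0.52 and Tagln by -0.41, while Myh11 (-0.05, edgeR adjusted p = 0.553) did not pass. Mylk was higher within each cluster, by 0.26 in Rgs5-high (edgeR adjusted p = 0.00315) and 0.24 in Rgs5-low cells (adjusted p = 0.0209). Lmod1 turned to 0.25 within Rgs5-high cells (edgeR adjusted p = 0.0384).

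Depth and marker RNA of other cell types moved with this difference. The median UMI count per smooth muscle-like cell was 8681 and 8918 in the WT of the Lama4 experiment and 5274 and 5014.5 in the WT of the Lama5 experiment. The summed level of 7 oligodendrocyte markers in smooth muscle-like cells was 53.5 and 54.6 against 271 and 348 CPM. Some other lists went the opposite way. The sum of 8 microglia markers was 215 and 180 against 110.5 and 106 CPM, and that of 6 choroid plexus markers 130 and 82.2 against 1.45 and 0.48 CPM. The part of depth and of these RNAs in the differences was not tested, and experiment and pool of mice cannot be told apart.

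Other genes of force generation also differed between the WT groups: 14 of 23 partners were lower and 2 higher, where 12.7% of all genes were lower and 14% higher. Enteric actin Actg2 differed by -3.08, the LIM protein Csrp1 by -0.88, cytoplasmic actin Actg1 by -0.79 and the phosphatase inhibitor Ppp1r14a by -0.70, each past the edgeR threshold. Of 19 genes of calcium handling and excitability, 5 were higher and 4 lower, led by the calcium release channel Ryr2 (-1.08) and the potassium channel Kcnma1 (-1.06), with Casq2 (0.59) and the connexin Gjc1 (0.54) higher. Of 16 transcriptional regulators, 7 were higher and 2 lower. That list held serum response factor, its cofactors, genes of the Notch pathway and other factors such as Klf4 and Tead3. Those called include Klf4 (1.43), the cofactor Mkl2 (0.93), Tead3 (-0.71) and the Notch target Hes1 (0.62). Of 12 immediate early genes, which respond quickly to stimulation, 7 were higher and 4 lower, with Fosb at 1.37, Klf2 at -0.58, Junb at -0.56 and Nr4a1 at 0.55. Beside the -0.57 median of the contractile genes, the median over all genes tested was -0.01.

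The targeted genes were first checked against the labels, on unscaled CPM. Lama4 had 0 UMIs in smooth muscle-like cells of the Lama4 KO, which allows up to 3 UMIs by counting, against 43.3 and 42.9 CPM in its WT. In pericyte-like cells it had 1 UMI (1.35 CPM) against 240.4 and 245 CPM. In endothelial-like cells Lama5 stood at 42.8 and 41.5 CPM in the WT and at 22.2 and 24.2 CPM in the Lama5 KO. In smooth muscle-like cells, which the endothelial driver does not aim at, Lama5 stood at 137 and 122 CPM in the WT and 123 and 139 CPM in the KO, with overlapping groups. A 3′ count need not lose its reads where a deletion leaves the end of the transcript, so the remaining endothelial Lama5 UMIs measure transcript, not function.

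In smooth muscle-like cells of the Lama5 KO, 2 of the 10 contractile genes passed the test and both moved little. Calponin (Cnn1) stood at 82.2 and 82.6 scaled CPM in the WT and at 129 and 98.04 in the KO, so the groups did not overlap. It was higher by 0.46 in log2 (SE 0.116, 95% interval 0.23 to 0.70, edgeR adjusted p = 0.0148). Desmin (Des) stood at 705 and 683 scaled CPM in the WT and at 635 and 594 in the KO, again without overlap. It was lower by a log2 difference of -0.18 (SE 0.0516, edgeR adjusted p = 0.045). Over all 9608 genes tested, 516 (5.37%) passed, 401 higher (4.17%) and 115 lower (1.2%).

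Depth and markers of other cell types moved with the Lama5 KO in smooth muscle-like cells. The median UMI count per cell was 5274 and 5014.5 in the WT against 4368.5 and 3920.5 in the KO. The summed level of 6 choroid plexus markers was 1.45 and 0.48 CPM in WT smooth muscle-like cells against 85.3 and 79.0 CPM after the deletion, and that of 8 microglia markers was 110.5 and 106 against 198 and 175 CPM. The sum of 10 pericyte markers was 2235 and 2162 against 1673 and 1901 CPM. In pericyte-like cells the choroid plexus sum was 0 in both WT libraries, against 156 and 120.5 CPM. Other lists were lower in smooth muscle-like cells of the KO. The sum of 8 neuron markers was 101 and 96.8 against 63.6 and 65.7 CPM, and that of 7 fibroblast markers 183 and 178 against 140 and 135 CPM. The sum of 8 astrocyte markers was 84.8 and 79.5 against 68.9 and 72.9 CPM. None of these groups overlapped, but with 2 libraries against 2, 23.8% of single genes lay below and 23.7% above in smooth muscle-like cells. The part of depth and of these RNAs in the contractile gene levels was not tested.

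Neither the Cnn1 nor the Des call was steady. Without KO library 1 the Cnn1 difference was 0.25 (edgeR adjusted p = 0.456), and DESeq2 gave 0.46 with an adjusted p of 0.122. Leaving out any 1 of the 4 libraries ended the Des call, with differences from -0.13 to -0.22. Cnn1 came almost wholly from Rgs5-low cells, whose share in the libraries is given above. Within Rgs5-low cells Cnn1 stood at 256 and 221 scaled CPM in the WT and at 322 and 266 in the KO, a log2 difference of 0.31 (edgeR adjusted p = 0.328).

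The remaining 8 genes did not pass, and their intervals were narrow. Myh11 stood at 2911 and 3039 scaled CPM in the WT and at 3292 and 3137 in the KO, a log2 difference of 0.11 (95% interval 0.03 to 0.19, edgeR adjusted p = 0.0915). Acta2 stood at 9389 and 9406 against 9427 and 8674 scaled CPM, with overlapping groups and a difference of -0.05 (SE 0.0365, edgeR adjusted p = 0.475). Mylk differed by 0.09, Tpm2 by 0.08, Pln by -0.08, Tagln by 0.04, Myl9 by -0.04 and Lmod1 by 0.02. Both KO libraries lay above both WT libraries for Myh11, Cnn1, Tpm2 and Mylk, against 23.7% of all genes tested, and below them for Des and Pln, against 23.8%. The median over the 10 genes was 0.03 and that over all genes was -0.01.

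Within each smooth muscle cluster no contractile gene passed. In Rgs5-low cells 96 of 6880 genes (1.4%) and 0 of 10 members passed the edgeR threshold, with Des at -0.23 (adjusted p = 0.22). In Rgs5-high cells 376 of 8670 genes (4.34%) and 0 of 9 members passed, with Des at -0.18 (edgeR adjusted p = 0.126). Cnn1 was too low to be tested there. At an unadjusted p under 0.05, 4 of 10 members passed in Rgs5-low cells, beside 11% of all genes, and 4 of 9 in Rgs5-high cells, beside 16%.

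**Figure D4:**
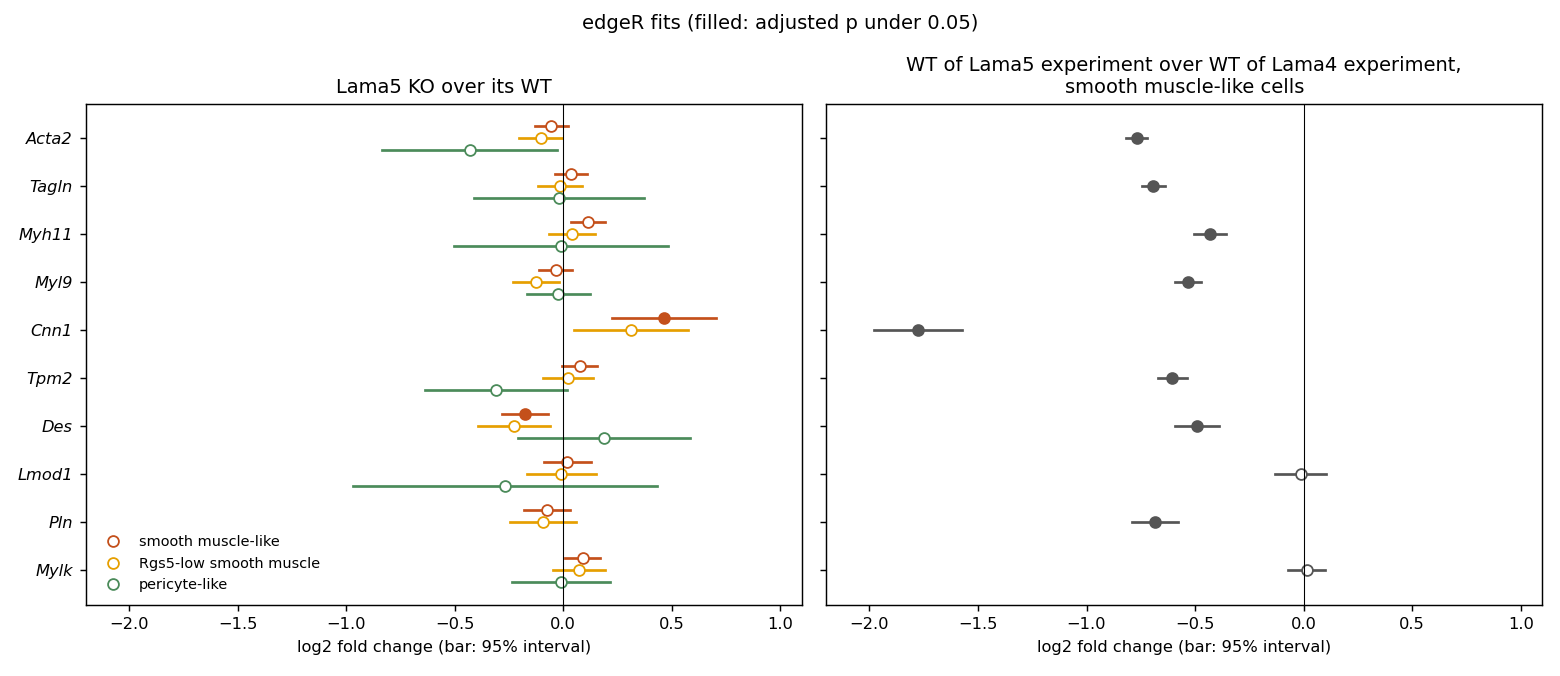
Log2 fold changes with 95% intervals from edgeR, filled where the adjusted p is under 0.05; left, Lama5 KO over its WT in smooth muscle-like, Rgs5-low and pericyte-like cells, right, WT of the Lama5 experiment over WT of the Lama4 experiment in smooth muscle-like cells. The KO differences lie between -0.18 and 0.46 in smooth muscle-like cells and between -0.23 and 0.31 in Rgs5-low cells, and the WT groups differ by up to -1.77.

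Genes around the contractile apparatus were read from the edgeR fit of all smooth muscle-like cells. In that fit 5.37% of all genes passed, 4.17% higher and 1.2% lower. Of 23 force generation partners 1 passed: Cnn2, a calponin of non-muscle cells too, stood at 205 and 211 scaled CPM in the WT against 162 and 163 in the KO, a log2 difference of -0.36 (edgeR adjusted p = 0.00639). Of 19 calcium and excitability genes tested, calmodulin gene Calm2 was higher (0.19, edgeR adjusted p = 0.00811) and the potassium channel Kcna5 lower (-0.43, adjusted p = 0.0175). The list of 16 transcriptional regulators held serum response factor, its cofactors, genes of the Notch pathway and other factors such as Foxs1. Of its members, 3 were lower and none higher. Srf itself (-0.01) and its cofactor Myocd (-0.08) did not pass. The 3 called were the Notch target Hes1, at 740.2 and 734 against 489.8 and 499 scaled CPM (-0.58, edgeR adjusted p = 1.33e-08), the forkhead factor Foxs1 (-0.41) and the receptor Notch3 (-0.18). Of 12 immediate early genes 3 were higher and 3 lower, among them Klf2 (-0.48), Fos (-0.39), Nr4a1 (0.35) and Egr1 (0.29).

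In pericyte-like cells of the Lama5 KO, 0 of the 8 contractile genes that could be tested passed, by edgeR, beside 42 of all 6197 genes (0.678%). Cnn1 and Pln had no UMI in these 4 libraries. Acta2 stood at 153 and 204 scaled CPM in the WT against 123 and 143 in the KO. The difference was -0.43 (95% interval -0.83 to -0.03, unadjusted p = 0.0356, edgeR adjusted p = 0.45), and Acta2 was the 1 member under an unadjusted p of 0.05. DESeq2 likewise called 0 of the members it gave an adjusted p. Tpm2 differed by -0.31, Lmod1 by -0.27 and Des by 0.19, while Myl9, Tagln, Mylk and Myh11 lay between -0.02 and -0.01. Des intervals ran from -0.21 to 0.59, so a change of the size seen in smooth muscle was not detectable at this depth.

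In the main pericyte-like cluster 43 of 5947 genes (0.723%) and 0 of 7 members passed edgeR's test, with 2 members under an unadjusted p of 0.05, as were 10% of all genes. Acta2 had 7 and 45 UMIs in the WT libraries and 11 and 0 in the KO, a difference of -2.07 (adjusted p = 0.167) that rests on few molecules. The test of whether the KO effect differed between smooth muscle-like and pericyte-like cells gave 15 of 6197 genes (0.242%) and 0 of 8 members past the edgeR threshold. Tpm2 came nearest, with a smooth muscle minus pericyte difference of 0.39 (unadjusted p = 0.018, edgeR adjusted p = 0.627). With the main pericyte-like cluster alone, Acta2 passed at 2.03 (edgeR adjusted p = 0.000846), among 17 of 5947 genes (0.286%), on the same few UMIs.

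The other lists in pericyte-like cells are set beside the 0.678% of all genes that passed there. Calcium and excitability gave 1 of 15 genes, the calcium-binding Casq2 at -0.51 (edgeR adjusted p = 0.0278). Immediate early genes gave 6 of 11, 3 higher and 3 lower, led by Nr4a1 (1.02), Fosb (0.65), Junb (0.47) and Dusp1 (-0.47). Of the 20 force generation partners and 12 transcriptional and Notch regulators, 0 passed edgeR, with 4 of each under an unadjusted p of 0.05, a threshold that 9.65% of all genes met.

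For the Lama4 KO there was 1 library, so no test was made. A gene was read as past the fold where it differed from the WT mean at least 1.5-fold, lay outside both WT libraries and averaged 20 CPM or more. In smooth muscle-like cells all 10 contractile genes were above both WT libraries, and none was past the fold. Of 5754 genes, 38.8% lay above both WT libraries, 37.1% below both, and 2.85% were past the fold.

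Pln, on scaled CPM, stood at 1108 and 1184 in the WT and at 1491 in the KO (exact Poisson 95% interval 1438 to 1546, counting error only), a log2 ratio of 0.38. Cnn1 stood at 298 and 252 against 349.9 (324 to 377), a ratio of 0.35. Acta2 stood at 15561 and 15601 against 18363 (18176 to 18552), a ratio of 0.24, and Tagln at 11011 and 10939.6 against 13147, a ratio of 0.26. Those 4 intervals lay wholly above the WT values. They leave out the spread between libraries, so a gene with many UMIs can clear the WT at a small ratio. Lying above the WT in this way does not set these 4 apart from the other members. Lmod1 (0.24), Tpm2 (0.21) and Mylk (0.19) were of similar size, and Myl9 (0.09), Des (0.06) and Myh11 (0.04) were close to the WT.

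The Rgs5-low share, which was higher in the KO (70.6% against 54.7% and 61.7%), moved with these levels. Within Rgs5-low cells log2 ratios ran from -0.08 (Myh11) to 0.20 (Lmod1), with Cnn1 at 0.08, Acta2 at 0.13 and Pln at 0.16, and 0 of 10 members past the fold among 4.23% of 5528 genes. There 6 members lay above both WT libraries, as did 35.4% of genes, and Myh11 lay below both, as did 38.4%. Within Rgs5-high cells 1 of 10 members was past the fold, among 10.8% of 6126 genes: Pln stood at 717 and 829.9 scaled CPM in the WT and at 1293 (1196 to 1396) in the KO, a ratio of 0.74. Acta2 (0.17), Tagln (0.22) and Mylk (0.25) were above the WT in Rgs5-high cells, while Des (-0.16), Lmod1 (-0.11) and Myh11 (-0.03) were below. In all, 7 members lay above both WT libraries there, against 37.4% of genes, and 3 below both, against 36.5%. The KO had 74 Rgs5-high cells, the fewest of any library.

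**Figure D5:**
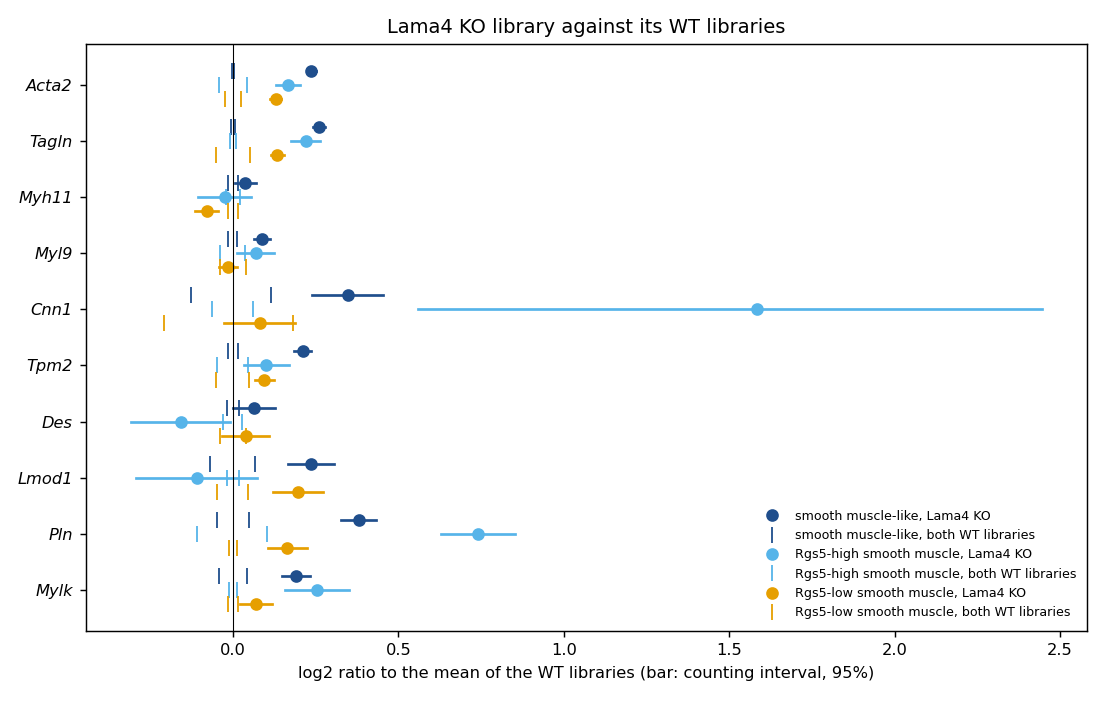
Log2 ratio of the Lama4 KO library to the mean of its 2 WT libraries for each contractile gene, in all smooth muscle-like cells and in each cluster; bars are exact Poisson 95% intervals of the KO count, and ticks mark both WT libraries. In all smooth muscle-like cells every KO point lies to the right of both WT ticks, up to 0.38 for Pln; Cnn1 in Rgs5-high cells rests on under 20 CPM.

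In pericyte-like cells of the Lama4 KO, 0 of the 10 members were past the fold, among 8.01% of 6994 genes. Lmod1 stood at 104.1 and 114 scaled CPM in the WT and at 76.0 in the KO (57.4 to 98.7), a log2 ratio of -0.52, which was -0.06 in the main pericyte-like cluster alone. Acta2 stood at 731 and 956 against 681 (623 to 744), a ratio of -0.31. In the main pericyte-like cluster alone Acta2 turned to 0.53 (160 and 129 against 209 scaled CPM), and 0 members were past the fold among 10.9% of 6991 genes. The small, Acta2-rich cluster made up 16.3% and 14.3% of pericyte-like cells in the WT and 11.02% in the KO.

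Choroid plexus RNA was higher in the Lama4 KO too. The summed level of 6 choroid plexus markers was 875 CPM in its smooth muscle-like cells, against 130 and 82.2 CPM in the WT, and 2262 against 314 and 237 CPM in pericyte-like cells. Its part in the contractile gene levels was not tested.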

How the data were processed

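The authors deposited unnormalized UMI counts for each gene in each barcode, made with Cell Ranger 3.1.0 per the matrix headers; the submitters' processing notes also name Seurat 3.1 and the mm10 build. All 10 genes and every list here were chosen with earlier results of these data known. Replicates are separate samples of 1 pool per the labels, and both deposits of the Lama4-/- group are identical.

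Cells with at least 500 detected genes and at most 15% mitochondrial UMIs were kept, a simulated-doublet score removed the top 0.8% per 1000 cells (3015 cells), and 47239 cells remained. Each cell was scaled to a total of 10000, and 2000 variable genes (none of the 10 members) gave 30 principal components for clustering by the Leiden method with 15 neighbours at resolution 1, giving 34 clusters (Python 3.11.15, igraph 0.11.9, scikit-learn 1.9.0). A cluster took a "-like" name when at least 3 markers were each found in 25% of its cells and at least 2-fold above the median over clusters. It stayed unnamed where more than 0.5 of another class's markers were also met, except for related classes; 1 cluster with endothelial and mural markers stayed unnamed. Rgs5-high and Rgs5-low cells are clusters at resolution 2. Coordinates are 1-based, and 31011 of 31053 gene IDs (99.9%) were found in GENCODE M21.

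Counts were summed per library and class. Levels by library are CPM of unscaled totals; comparisons use CPM scaled by TMM. The Lama5 KO and WT comparisons used edgeR 4.0.16 in R 4.3.3 (glmQLFit and glmQLFTest, filterByExpr, no covariate), with Benjamini-Hochberg adjustment over all genes tested. The Lama4 KO was compared by size, with a pseudocount of 0.5 CPM and exact Poisson 95% intervals. The Poisson intervals cover counting error only, while the edgeR intervals also take in the spread between libraries of a pool. Other lists were partners in force generation, calcium and excitability, transcriptional regulators, and immediate early genes. The regulators were serum response factor, its cofactors, Notch genes and other factors. At most 4 genes of a list past the threshold are named by size of change. On simulated counts for the Lama5 comparison, 40% of 1.5-fold and 76% of 2-fold changes were recovered in smooth muscle-like cells (9608 genes), and 15% and 52% in pericyte-like cells (6197 genes). The changed genes were drawn at random from all genes tested, so these rates are not those of the contractile genes. Alternatives were DESeq2 1.42.0, other scaling, filters, clusterings and libraries left out.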

Additional observations from a re-analysis of the deposited data

Results flagged for a closer look

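Des and Pln in smooth muscle-like cells differed from the WT in opposite directions in the 2 KO groups, with every library on the same side of its WT. The log2 ratio of Des was -0.18 in the Lama5 KO and 0.064 in the Lama4 KO, and that of Pln was -0.075 and 0.38. Within Rgs5-high cells of the Lama4 KO the Des ratio was -0.16, the sign of the Lama5 KO. In the Lama4 KO all 10 contractile genes, and 38.8% of all genes, lay above both WT libraries. The difference between the KO groups was not tested, and with 2 libraries against 2, both KO libraries lay below both WT libraries for 23.8% of all genes in the Lama5 comparison.

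A cluster left out of the comparisons, with both endothelial and mural markers among its leading genes, held 130 cells of the Lama5 KO (0.825% of cells kept) and 19 of its WT (0.119%). The 10 contractile genes took 0.582% of its UMIs in the KO and 0.508% in the WT, above main pericytes and below smooth muscle-like cells. Its median UMI count per cell was 11369 and 9588 in the KO libraries and 4918 and 6829 in the WT libraries.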

How the results depend on the processing

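The counts of genes called, each contractile gene's value and the smooth muscle-like share were recomputed under the alternatives, and the marker-share bins under 2; shares of Rgs5-low and small-cluster cells, thinned detection and marker sums were not. The gradient counts and the number of members called between the WT groups moved by less than 1.5 times throughout. For the Lama5 KO in smooth muscle-like cells, the 2 members called (of 516 genes) became 0 with DESeq2 (183 genes), 0 with no filter on low counts (37), 1 with doublets kept, 0 at resolution 2 (96), where the class is the Rgs5-low cluster alone, and 0 in Rgs5-high and in Rgs5-low cells (96), the last 2 added after seeing the data. Leaving out a library gave 0 to 1 members and 96 to 451 genes. In pericyte-like cells, DESeq2 called 4 genes, doublets kept 20, both smooth muscle clusters merged at resolution 2 (added later) 25, and leaving out a library 21 to 35. At resolution 2, where the naming rule puts the Rgs5-high cluster with the pericytes, 1 member (Acta2, -0.14) and 491 genes passed. For the difference between classes, DESeq2 called 0 genes, the stricter cell filter 8, resolution 2 gave 8 and leaving out a library 3 to 11; the largest cluster of each class, added later, gave 1 member. Between the WT groups, genes called were 985 with DESeq2, 1547 with no filter, 914 at resolution 2 and in Rgs5-low cells, and 1461 in Rgs5-high cells, where Lmod1 turned to 0.25. The Lama4 KO had 1 member past the fold in Rgs5-high cells against 0. The smooth muscle-like share difference of the Lama5 KO turned to 1.48 points with the stricter filter and 1.81 at resolution 2, and ran from -0.53 to 0.32 without single libraries. The cause of these shifts was not tested. A further 45 values of single genes changed sign while past the threshold in neither setting. Replicate numbers did not pair the libraries (correlation of deviations 0.01 and -0.02); a replicate block gave 2 members and 701 genes in smooth muscle-like cells and 0 members and 42 genes in pericyte-like cells.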
